A study of Mus musculus with 12 samples.

Results

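The neutrophil-attracting CXC chemokines Cxcl1, Cxcl2, Cxcl3, Cxcl5 and Ppbp were examined as 5 of the 18403 genes measured in dendritic cells grown from mouse bone marrow and exposed to nanoparticles of γ-PGA, poly(γ-glutamic acid), which is a polymer that cells can break down. The members were the probes whose RefSeq accession maps to one of these symbols, and each gene had 1 probe, so that 5 of the 41174 probes on the array belonged to the set and all 5 passed the filter on dim probes. The cells were grown from the marrow of female mice aged 6 to 8 weeks in GM-CSF at 20 ng/ml. Loosely attached or floating cells were taken on day 7 as immature dendritic cells. They formed 4 groups of 3 samples, labelled 0 h, 6 h, 12 h and 24 h of incubation with the particles at 300 µg/ml, which the design calls independent experiments. All groups shared the culture in GM-CSF. The sources used here give no mouse strain. Cultures kept for the same hours without particles are not among the 12 samples, and particle exposure therefore cannot be told apart from time in culture.

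CXC chemokines are small secreted proteins. Those with the amino acids glutamate, leucine and arginine ahead of the CXC motif bind the receptor CXCR2 and draw neutrophils from blood into tissue. Myeloid cells make their messages within hours of meeting microbial products or inflammatory cytokines, through transcription factors of the NF-kB family, and the messages are removed quickly by RNA-binding proteins. Dendritic cells take up particles, mature, and release such chemokines while doing so. Ppbp, the platelet basic protein, is best known from megakaryocytes and platelets, where it is stored and cleaved to an active neutrophil attractant.

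In mice the members lie in a row on chromosome 5. The bases just before the annotated starts of 4 of them are printed because 3 of these genes share a run of bases there of the kind that NF-kB binds. The 100 bases before each start come from RefSeq on GRCm38.p6, plus strand, at chr5:90891145-90891244 for Cxcl1, chr5:90903799-90903898 for Cxcl2, chr5:90786001-90786100 for Cxcl3 and chr5:90768418-90768517 for Ppbp. Capitals mark GGGAATTTCCC and, on either strand, ATAAAAGG.
Cxcl1: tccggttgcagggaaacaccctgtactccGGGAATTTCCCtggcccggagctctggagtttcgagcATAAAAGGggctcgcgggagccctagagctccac
Cxcl2: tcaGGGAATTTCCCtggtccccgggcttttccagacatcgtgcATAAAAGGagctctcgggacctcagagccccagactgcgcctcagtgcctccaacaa
Cxcl3: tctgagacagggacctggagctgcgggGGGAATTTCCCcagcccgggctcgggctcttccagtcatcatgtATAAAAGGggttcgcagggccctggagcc
Ppbp: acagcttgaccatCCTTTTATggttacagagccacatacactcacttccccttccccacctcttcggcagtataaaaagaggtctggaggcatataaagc
GGGAATTTCCC was the longest run of bases shared by the promoters of Cxcl1, Cxcl2 and Cxcl3, and it has the form of a site for NF-kB. It stood at bases 71 to 61 before the start of Cxcl1, 97 to 87 before that of Cxcl2 and 73 to 63 before that of Cxcl3. When both strands of the 250 bases before each start were searched, it was found in 14 of 32851 annotated promoters, 0.0426%, these 3 included, and not in that of Ppbp. ATAAAAGG was the longest run shared by all 4 on either strand, reversed for Ppbp, and was present in 1.54% of all promoters. It does not hold the bases TATA by itself, and only for Cxcl3 does a T stand before it. For Ppbp the reversed match stood at bases 87 to 80 before the start, and the stretches with TATA nearer that start are not marked. TGANTCA, the motif bound by AP-1 factors, occurred only for Ppbp among the 4, at bases 204 to 198 before the start, outside the stretch printed above, and in 6.75% of all promoters. The 3 motifs do not overlap one another in these promoters. The first 2 were taken from these promoters themselves, so the matches are a description.

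Levels came from 2 deposited sources, which are reported side by side. The scanner signal is given in multiples of the 75th percentile of its own array, and the deposited value table gives each probe as a ratio to the middle one of its own 0 h values. Across the 12 arrays the 75th percentile was 338.6 to 472.3 intensity units, between 50.9% and 59.6% of spots were well above background, and 165 to 223 spots were saturated. The array of 6 h replicate 2 carried 628 spots marked as outliers and no other array more than 42. The arrays lay on 3 slides, with 6 h replicate 1 beside the 0 h arrays, the other 6 h arrays beside 12 h replicates 1 and 2, and 12 h replicate 3 beside the 24 h arrays. The scanner arrays labelled 24 h stand apart from the value table: they correlated at 0.99 to 0.992 with the 0 h arrays, against 0.919 to 0.926 with the 6 h and 0.907 to 0.913 with the 12 h arrays. The 24 h columns of the table correlated at 0.884 to 0.913 with its 12 h columns. Across all genes the change at 24 h against 0 h correlated between the sources at -0.074, against 0.73 at 6 h and 0.54 at 12 h. The sources parted for the 12 h samples too, since the change at 12 h against 6 h correlated between them at -0.13. The changes of the 12 h columns from 0 h correlated at 0.606 to 0.629 with those of the 6 h arrays, against 0.503 to 0.532 with those of the 12 h arrays. Which source carries the 24 h samples was not tested, so every value labelled 24 h is given for each source apart. Taking the 24 h samples out of the fit changed no call on the members among 0, 6 and 12 h in either source.

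Cxcl1, known in mice as KC, is among the strongest neutrophil attractants of the mouse. Its scanner signal was 0.145, 0.158 and 0.175 in the 3 samples at 0 h, 131, 104 and 118 at 6 h, 64.0, 60.9 and 59.2 at 12 h, and 0.133, 0.128 and 0.133 at 24 h. The 6 h and 12 h samples were far above all others without overlap, and the 24 h samples lay just below those at 0 h. The ratios of the table were 1, 0.801 and 5.58 at 0 h, 679, 659 and 671 at 6 h, 548, 549 and 491 at 12 h, and 162, 149 and 168 at 24 h. Here the level at 24 h stayed well above every sample at 0 h, and the third column at 0 h stood apart from the other two. At 6 h against 0 h the scanner values gave Cxcl1 a log2 change of 9.53 with an SE of 0.088 (limma adjusted p = 9.43e-13, n = 3 in each group), the change ranked 2 from the top of 18403 genes. In the table it rose by 8.67 ± 0.57 (limma adjusted p = 2.84e-07), or by 9.55 without 0 h replicate 3.

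Cxcl2, or MIP-2, is the close relative that macrophages and dendritic cells release beside Cxcl1. Its scanner signal was 0.763, 0.813 and 0.788 at 0 h, 132, 115 and 128 at 6 h, 74.7, 70.0 and 70.1 at 12 h, and 0.758, 0.786 and 0.741 at 24 h. The samples at 24 h overlapped those at 0 h, and those at 6 h stood above those at 12 h. Ratios in the table were 1.03, 1 and 0.971 at 0 h, 131, 127 and 128 at 6 h, 82.2, 80.9 and 73.4 at 12 h, and 21.5, 20.4 and 22.5 at 24 h. The 2 sources thus gave Cxcl2 nearly equal steps to 6 h and 12 h and separated at 24 h. At 6 h against 0 h it rose by 7.31 ± 0.057 in the scanner values and by 7.01 ± 0.058 in the table (log2 change ± SE, 3 samples in each group, adjusted p = 3.03e-13 and 3.08e-13 from limma).

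Cxcl3, first described in mouse dendritic cells as an inflammatory chemokine, saturated the scanner at its peak. Its scanner signal was 2.58, 2.54 and 2.60 at 0 h, 139, 129 and 159 at 6 h, 151, 145 and 143 at 12 h, and 2.78, 2.87 and 3.04 at 24 h. All 3 spots at 6 h were saturated and none at 12 h, so the 6 h values are lower bounds and the step between 6 h and 12 h has no size in this source. Cxcl3 rose at least 55.1-fold at 6 h against 0 h (limma adjusted p = 5.23e-12) and 56.8-fold at 12 h against 0 h (limma adjusted p = 1.85e-12). Ratios in the table were 0.937, 1 and 1.005 at 0 h, 335, 310 and 327 at 6 h, 273, 281 and 244 at 12 h, and 105, 96.0 and 106 at 24 h. In the table the 3 exposed groups lay one below the other without overlap, all far above 0 h.

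Cxcl5, called LIX in mice, binds CXCR2 as well and is often a product of epithelial and stromal cells. Its scanner signal was 0.0509, 0.0486 and 0.0375 at 0 h, where 2 of 3 arrays placed it well above background, then 7.65, 7.03 and 6.93 at 6 h, 1.14, 1.26 and 1.15 at 12 h, and 0.0395, 0.0383 and 0.0520 at 24 h. The peak was at 6 h with a clear gap to 12 h, and the 24 h samples overlapped those at 0 h. Ratios in the table were 1, 1.20 and 0.701 at 0 h, 1383, 1273 and 1268 at 6 h, 2188, 2271 and 2097 at 12 h, and 1338, 1219 and 1346 at 24 h. There the highest group was 12 h, and the samples at 24 h overlapped those at 6 h. Cxcl5 had the largest rise of all 18403 genes at 6 h and 12 h against 0 h in the table, by 10.4 ± 0.16 and 11.2 ± 0.16, and was ranked 2 at 24 h. In the scanner values it rose by 7.31 ± 0.14 at 6 h and 4.71 ± 0.14 at 12 h (adjusted p = 3.99e-11 and 4.44e-10 from limma), ranked 16 and 108.

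Ppbp parted from the other members in the scanner values. Its signal was 6.98, 7.27 and 7.27 at 0 h, 22.3, 21.4 and 22.4 at 6 h, 2.77, 2.68 and 2.57 at 12 h, and 7.48, 7.58 and 7.71 at 24 h. It was thus above the start at 6 h, below it in every sample at 12 h, and slightly above it at 24 h. Ratios in the table were 1, 1.01 and 0.967 at 0 h, 109, 96.4 and 103 at 6 h, 49.9, 48.2 and 47.9 at 12 h, and 20.4, 19.5 and 19.6 at 24 h. In this source Ppbp was far above its start in every exposed sample. At 6 h against 0 h the log2 change of Ppbp was 1.62 ± 0.041 in the scanner values, which is 3.07-fold, and 6.69 ± 0.052 in the table, which is 103-fold (limma adjusted p = 2.3e-10 for the scanner and 2.84e-13 for the table). At 12 h against 0 h the sources ran in opposite directions, with a fall by 1.42 ± 0.041 in the scanner values (limma adjusted p = 3.85e-10) and a rise by 5.61 ± 0.052 in the table (limma adjusted p = 6.08e-13). Which of the directions holds was not tested.

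**Figure D1:**
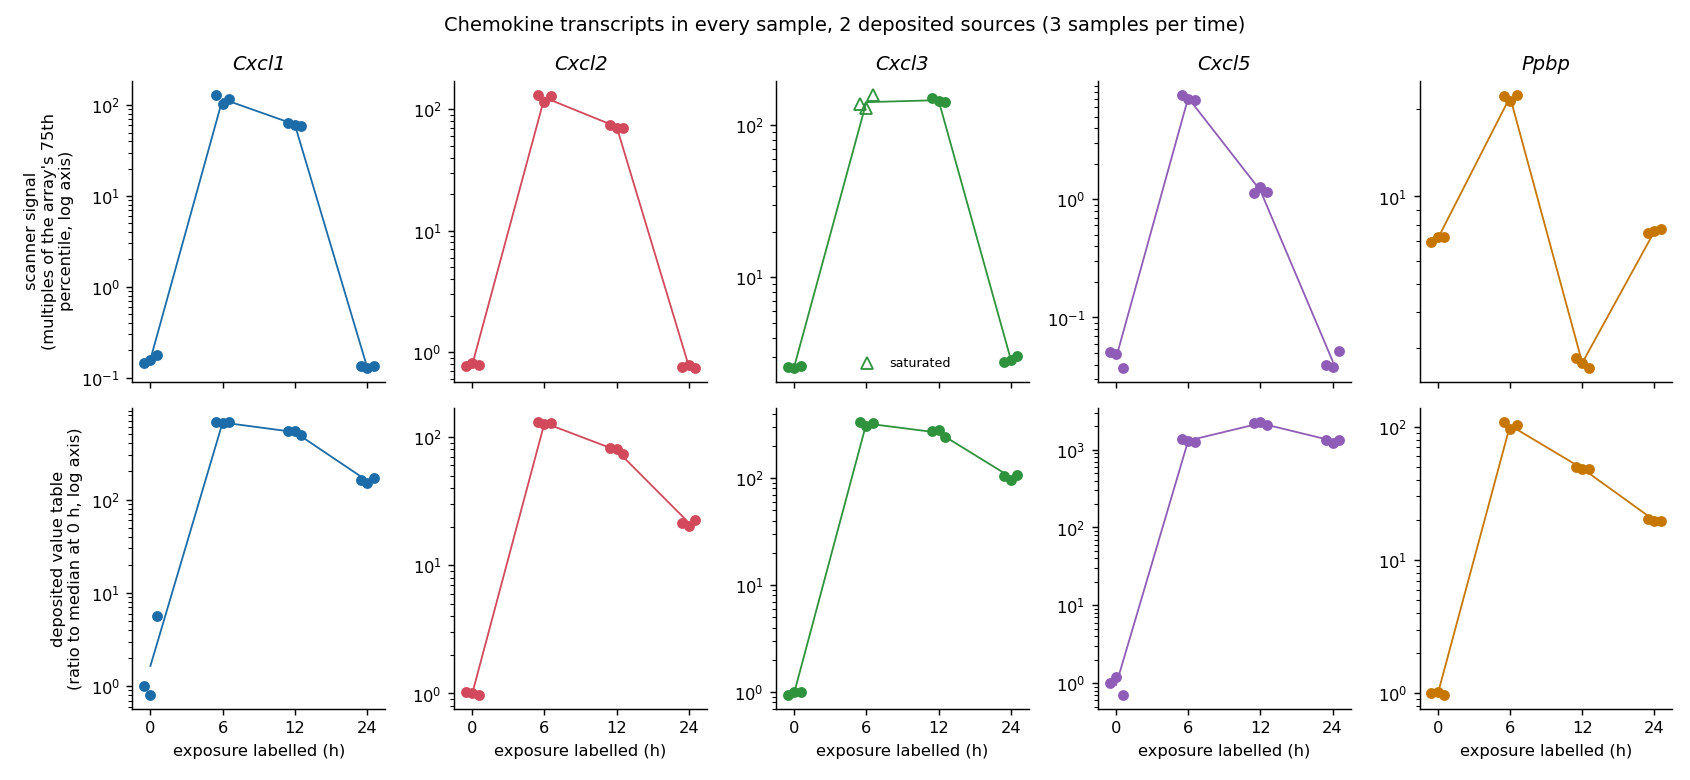
Level of each chemokine in every sample, with the scanner signal in multiples of the array's 75th percentile in the upper panels and the ratio to the median at 0 h of the deposited value table in the lower panels, on log axes with a range of their own, against the labelled exposure in h. Points are single samples, open triangles saturated spots, and lines join the geometric means of 3 samples; in the upper panels the 24 h samples sit at the level of 0 h, and in the lower panels they remain above it.

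The comparison of 6 h with 0 h asks for the early change. All 5 members rose in both sources, where a call needed 2-fold or more and an adjusted p under 0.05. Of all genes tested, 10.2% rose by that rule in the scanner values and 13.2% in the table, and 15.9% and 11.8% fell. The median log2 change of the members was 7.31 in the scanner values and 8.37 in the table, against -0.06 and 0.14 over all genes. The 6 h samples lay above the 0 h samples without overlap for each member in both sources. The share of all genes without overlap is not given, here or for the later comparisons, so such statements only describe the samples. The table gave larger steps than the scanner for Cxcl5 and Ppbp. The scanner's step for Cxcl3 is a lower bound and has no place in such a comparison, and the steps of Cxcl1 were 9.53 in the scanner values and 9.55 in the table without 0 h replicate 3. Within the slide that held 6 h replicate 1 and the 0 h arrays, the scanner changes were 9.68 for Cxcl1, 7.38 for Cxcl2, 5.75 for Cxcl3, 7.40 for Cxcl5 and 1.63 for Ppbp, with 1 array at 6 h.

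After 12 h the members Cxcl1, Cxcl2, Cxcl3 and Cxcl5 remained above 0 h in both sources. By the scanner 4 members were called higher and 1, Ppbp, lower, while 13.7% of all genes rose and 16.9% fell. In the table all 5 were called higher, with 15.7% of all genes rising and 12.1% falling. The scanner placed Cxcl1 386-fold and Cxcl2 90.9-fold above 0 h. The table placed Cxcl1 321-fold and Cxcl2 78.7-fold above it. The table's log2 change of Cxcl1 rests on 0 h replicate 3, without which it was 9.21 in place of 8.33. The median log2 change of the 5 members was 5.83 in the scanner values and 8.08 in the table, against -0.03 and 0.22 over all genes. The comparisons of 6, 12 and 24 h with 0 h all share the 3 samples at 0 h. No slide held samples of both 12 h and 0 h. With the slide as a block, which links them through the 6 h arrays, no call on a member changed.

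Between 6 h and 12 h the sources shared the direction for Cxcl1, Cxcl2 and Ppbp, which were lower at 12 h in every sample of both. In the scanner values 2 members were called lower, Cxcl5 by 2.60 ± 0.14 and Ppbp by 3.04 ± 0.041 on the log2 scale (limma adjusted p = 1.99e-07 and 1.39e-10, n = 3 per group), while 2.1% of all genes were called lower and 4.89% higher. The table called 1 member, Ppbp, with a fall by 1.07 ± 0.052 (limma adjusted p = 2.89e-07), while 2.73% of all genes were called lower and 3.07% higher. Cxcl1 and Cxcl2 had log2 changes of -0.93 and -0.80 in the scanner values and of -0.34 and -0.71 in the table, all under 2-fold. Of the 5 members only Cxcl5 had opposite signs in the 2 sources with a size in both, since its change in the table was 0.74 ± 0.16 (limma adjusted p = 0.00325, under 2-fold). Other settings moved Cxcl1 in the scanner values past 2-fold, to -1.16 with quantile normalization and -1.04 with the normexp background, and leaving out 6 h replicate 2 moved it to -1.02. On the slide that held 2 arrays of each time the changes were -0.83 for Cxcl1, -0.75 for Cxcl2, -2.54 for Cxcl5 and -3.01 for Ppbp.

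At 24 h against 0 h the sources parted for all 5 members. By the scanner, limma called 0 of 5 members at 24 h against 0 h, with 2 at an unadjusted p under 0.05, while 0.696% of all genes were called higher and 0.141% lower. The 95% interval of the log2 change reached from -0.47 to -0.07 for Cxcl1, from -0.18 to 0.08 for Cxcl2, from 0.01 to 0.33 for Cxcl3, from -0.39 to 0.23 for Cxcl5 and from -0.01 to 0.17 for Ppbp. Each interval lay inside a 2-fold change in both directions. In the table all 5 members were called higher at 24 h against 0 h, as were 13.3% of all genes, with 13% called lower. The table's rise was 96.8-fold for Cxcl1, 21.4-fold for Cxcl2, 104-fold for Cxcl3, 1376-fold for Cxcl5 and 19.9-fold for Ppbp (limma adjusted p from 2.42e-06 for Cxcl1 to 8.6e-13 for Cxcl3, n = 3 per group). Without 0 h replicate 3 the table's log2 change of Cxcl1 was 7.48 in place of 6.60. After quantile normalization of the table's columns Cxcl1 was no longer called, at a log2 change of 4.37. The median of the 5 members was -0.05 in the scanner values and 6.60 in the table, against 0.04 and 0.12 over all genes.

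Against 12 h, the level at 24 h was lower for Cxcl1, Cxcl2, Cxcl3 and Cxcl5 in every sample of both sources. The scanner values called these 4 members lower and Ppbp higher, by 1.51 ± 0.041, beside 12.9% of all genes lower and 18.2% higher. The log2 changes by the scanner were -8.86 for Cxcl1, -6.56 for Cxcl2, -5.66 for Cxcl3 and -4.79 for Cxcl5. The table called 4 members lower, Cxcl1 by 1.73 ± 0.57, Cxcl2 by 1.88 ± 0.058, Cxcl3 by 1.38 ± 0.067 and Ppbp by 1.30 ± 0.052, beside 3.17% of all genes lower and 1.4% higher. Its change for Cxcl5 was -0.75 ± 0.16, under 2-fold. The table's call on Cxcl1 (limma adjusted p = 0.0328) was lost when any 1 column labelled 12 h or 24 h was left out (limma adjusted p 0.0602 to 0.0814) and after quantile normalization, where it was 1, and the adjusted p was 1.62e-06 without 0 h replicate 3. On the slide that held both times, with 1 array at 12 h, the scanner changes were -8.81, -6.53, -5.62 and -4.75 for Cxcl1, Cxcl2, Cxcl3 and Cxcl5, and 1.56 for Ppbp.

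**Figure D2:**
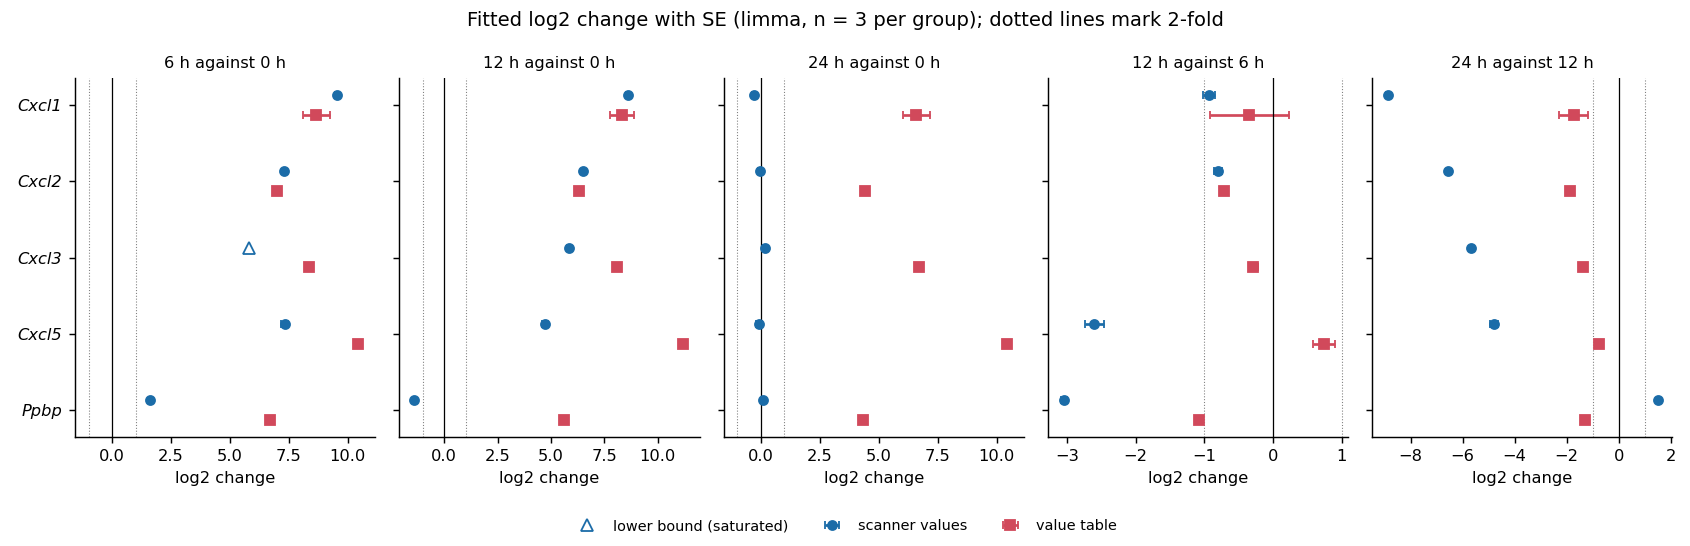
Fitted log2 change of each chemokine (x axis) in 5 comparisons, from the scanner values (circles) and the value table (squares), with the SE as bars and 3 samples per group; dotted lines mark 2-fold and the open triangle is a lower bound from saturated spots. At 24 h against 0 h the circles lie near 0 and the squares between 4.32 and 10.4, and at 12 h against 0 h the points of Ppbp lie on opposite sides of 0; no scanner point is drawn for Cxcl3 at 12 h against 6 h, where the 6 h spots were saturated.

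Over all 4 times, each member changed in both sources by limma's F-test, with an adjusted p of at most 5.65e-07, as did 85.1% of all genes in the scanner values and 86.1% in the table at an adjusted p under 0.05. Levels of Cxcl1, Cxcl2, Cxcl3 and Cxcl5 moved together over the 12 scanner arrays, with Pearson's r between 0.953 and 1 on the log2 scale, the saturated 6 h values of Cxcl3 included. Ppbp correlated with them at 0.0217 to 0.315. In the table all pairs, Ppbp included, correlated at 0.941 to 0.997. The 12 samples fall into 4 groups and share each array's scaling, so these values only describe likeness.

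Along chromosome 5 the row runs Cxcl5, Ppbp, Pf4, Cxcl3, Cxcl15, Cxcl1 and Cxcl2, with no other annotated gene between them. Pf4, platelet factor 4, is the neighbour of Ppbp in the row and is likewise known from platelets. Its scanner signal was 38.1, 37.3 and 38.1 at 0 h, 41.6, 37.3 and 38.7 at 6 h, 27.8, 29.3 and 26.3 at 12 h, and 36.5, 37.7 and 39.8 at 24 h, so that only the 12 h samples lay apart, below the others. Its log2 changes against 0 h were 0.05, -0.45 and 0.01 at 6, 12 and 24 h in the scanner values, none called. In the table Pf4 was called higher at each time, by 2.14, 2.37 and 2.46. The signal of Cxcl15, a chemokine of the lung, was not well above background on any array.

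**Figure D3:**
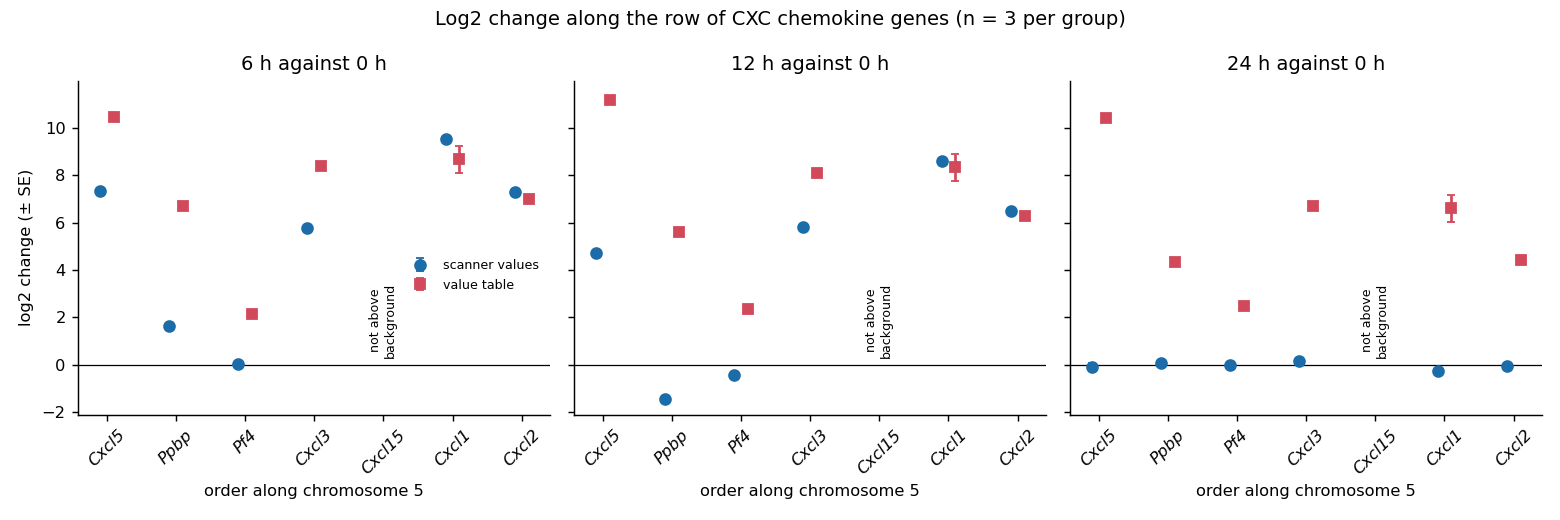
Log2 change ± SE (y axis) of the CXC chemokine genes in their order along chromosome 5 (x axis, not to scale) at 6, 12 and 24 h against 0 h, for the scanner values (circles) and the value table (squares), 3 samples per group. At 6 h against 0 h Pf4 is the lowest point of the row in both sources (0.05 and 2.14), and Cxcl15 was not above background; the scanner point of Cxcl3 at 6 h is a lower bound.

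Cxcr2, which encodes the receptor for these chemokines, moved the other way. Its scanner signal was 0.753, 0.720 and 0.739 at 0 h, 0.173, 0.146 and 0.141 at 6 h, 0.0888, 0.0692 and 0.0771 at 12 h, and 0.654, 0.656 and 0.589 at 24 h. The 6 h and 12 h samples were well below those at 0 h. The log2 change against 0 h was -2.27 at 6 h and -3.24 at 12 h in the scanner values and -3.07 and -2.90 in the table, called by limma in both, and at 24 h it was -0.22 in the scanner values and -2.27 in the table. In RNA from a whole culture, fewer cells of a type and less of the message per cell cannot be told apart. Of 5 CXC receptors and scavengers 4 passed the filter. Of these, Ackr1 and Ackr3 were not well above background on any array at 0 h and passed only through the arrays labelled 24 h, so they are left out of the count. The other 2, Cxcr2 and Cxcr4, were called lower at 6 h and at 12 h in the scanner values, and 1 lower and 1 higher in the table. Cxcr4, the receptor for Cxcl12, had opposite signs in the sources, with -1.85 in the scanner values and 1.20 in the table at 6 h against 0 h.

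Of 10 other CXC chemokines, whose best known members draw lymphocytes through other receptors, 5 passed the filter. At 6 h against 0 h, 2 were called higher and 1 lower in the scanner values, and 4 higher in the table. Of all genes, 10.2% were called higher and 15.9% lower in the scanner values, and 13.2% higher in the table. Cxcl16, which also exists as a membrane-bound form, rose by 1.56 ± 0.051 in the scanner values and 3.48 ± 0.066 in the table. Cxcl14, an attractant for monocytes, fell by 1.65 in the scanner values and had a change of -0.20 in the table. In the table Cxcl9 and Cxcl10 rose by 6.56 and 6.82, beside 6.69 for Ppbp and 7.01 for Cxcl2. In the scanner values Cxcl9 and Cxcl10 had changes of 1.95 and 0.91, beside 1.62 for Ppbp. At 12 h against 0 h the scanner changes of Cxcl9 and Cxcl10 were 4.28 and 3.14. The median of the 5 at 6 h was 0.91 in the scanner values and 3.48 in the table. The neutrophil-attracting members had medians of 7.31 and 8.37, but the 2 sets overlapped.

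Cytokines that are known to induce these chemokines in myeloid cells were also higher at 6 h and 12 h. Of 7 listed, 6 passed the filter, 2 of them, Csf2 and Csf3, only through the 6 h and 12 h arrays. The other 4 were called higher at 6 h and at 12 h against 0 h in both sources, beside 10.2% to 15.7% of all genes. Tnf, an early inflammatory mediator, rose by 5.92 ± 0.053 at 6 h against 0 h in the scanner values and by 5.21 ± 0.055 in the table. Its spots were saturated on 2 of the 3 arrays at 6 h, which caps the scanner's change. Csf3, the growth factor of the neutrophil lineage, was not well above background at 0 h and rose at least 86.0-fold at 6 h by the scanner, with a 52.1-fold rise in the table. At 24 h against 0 h limma called 0 of the 6 in the scanner values, beside 0.696% of all genes higher and 0.141% lower. Only Csf2 and Csf3 had an unadjusted p under 0.05 in limma. Both were not well above background on any array at 0 h or 24 h, so their changes have no size. The table called all of the other 4 higher, beside 13.3% of all genes. The sources thus differed at 24 h for these cytokines too.

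Of 11 NF-kB subunits and inhibitors, the transcription factors that switch on chemokine genes and the proteins that hold them back, 1, Rel, was not well above background at 0 h and passed only through the 6 h and 12 h arrays. Of the other 10, 9 were called higher at 6 h and 9 at 12 h against 0 h in the scanner values, and 10 and 9 in the table, beside 10.2% to 15.7% of all genes. Their median log2 change at 6 h was 1.96 in the scanner values and 2.63 in the table. Nfkbiz, a nuclear inhibitor-family protein needed for a class of secondary response genes, rose by 4.92 ± 0.096 at 6 h and 5.58 at 12 h in the scanner values, and by 3.17 and 2.10 in the table. Among 10 measured regulators of message decay, 3 were called higher and 1 lower at 6 h in the scanner values, and 1 higher and 2 lower in the table. Of all genes, 10.2% were called higher and 15.9% lower at 6 h in the scanner values, and 13.2% and 11.8% in the table. Zc3h12a, an endonuclease that cuts inflammatory messages, rose at 6 h by 2.85 and 2.27 in the scanner values and the table, and at 12 h by 3.28 and 2.26. Zfp36, which binds AU-rich elements and shortens the life of such messages, rose by 1.52 at 6 h in the scanner values and had a change of 0.08 in the table.

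**Figure D4:**
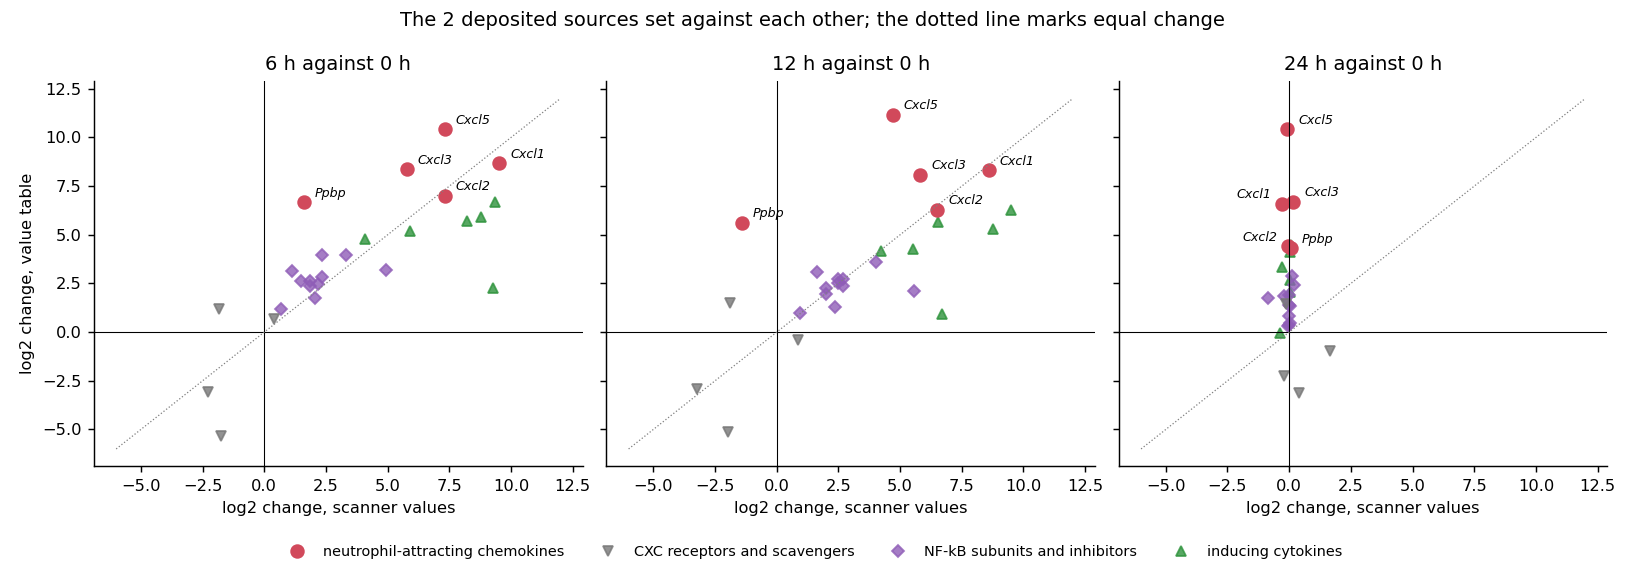
Log2 change against 0 h in the scanner values (x axis) and in the value table (y axis) for the 5 chemokines and the measured genes of 3 lists, at 6, 12 and 24 h, n = 3 per group. At 6 h Ppbp (1.62 and 6.69) and Cxcl5 (7.31 and 10.4) lie above the dotted line of equal change. Csf2 (9.28 and 2.26), Il1a (8.79 and 5.94) and Il6 (9.35 and 6.71) lie below it. At 24 h the chemokines lie between -0.27 and 0.17 in the scanner values and between 4.32 and 10.4 in the table. Saturated or dim genes such as Cxcl3 at 6 h, Il6, Csf2 and Csf3 stand at their fitted values.

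Markers of the cells in culture were read beside these results. Of 9 dendritic cell markers all passed the filter, and their summed scanner signal was 474 to 496 at 0 h, 497 to 564 at 6 h, 611 to 652 at 12 h and 471 to 480 at 24 h. Of the 9, 2 were called higher and 2 lower both at 6 h and at 12 h against 0 h in the scanner values. Of all genes, 10.2% were called higher and 15.9% lower at 6 h, and 13.7% and 16.9% at 12 h. Cd74 and H2-Ab1, large terms of the sum, were saturated on every array, so the sum is capped and its rise has no size. The chemokine receptor Ccr7, a sign of dendritic cell maturation, rose by 2.40 at 6 h and 3.43 at 12 h on the log2 scale in the scanner values. Its mean signal was 135 at 12 h, 10.8-fold that at 0 h. Zbtb46, a transcription factor of conventional dendritic cells, rose by 1.14 at 6 h and 1.23 at 12 h in the scanner values. Its mean ratio in the table was 2.12 at 6 h and 1.28 at 12 h, so the table showed less than a 2-fold rise at 12 h. By the scanner the C-type lectin Clec10a fell, with changes of -3.30 and -3.85. Cd209a, a lectin of the DC-SIGN family, fell at least 4.45-fold and 5.42-fold there, being not well above background on any 6 h or 12 h array. Neutrophil markers were present throughout, with 11 of 12 listed genes measured, Ly6g having no matched probe, and summed signals of 366 to 377 at 0 h, 323 to 377 at 6 h, 372 to 416 at 12 h and 372 to 381 at 24 h. S100a9, the largest term of this sum, was saturated on every array, so the sum is capped. Of the 11, by the scanner, 0 rose and 3, 2 and 0 fell at 6, 12 and 24 h against 0 h. By the table none rose and 5, 6 and 9 fell at 6, 12 and 24 h. Among all genes 15.9%, 16.9% and 0.141% fell at these times by the scanner, and 11.8%, 12.1% and 13% by the table. The part of neutrophils in the fall of Cxcr2, itself 1 of the 11 markers, was not tested.

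Megakaryocyte and platelet markers, the cells in which Ppbp and Pf4 are best known, had 8 of 11 listed genes measured. Their summed scanner signal, in which Pf4 is the largest term, was 39.1 to 40.0 at 0 h, 38.8 to 43.1 at 6 h, 28.6 to 31.6 at 12 h and 38.0 to 41.5 at 24 h. Pf4 gave 91.7% to 96.6% of the sum on each array, so the low sum at 12 h is that of Pf4. Without Pf4 the other 7 genes summed to 1.79 to 1.91 at 0 h, 1.48 to 1.56 at 6 h, 2.23 to 2.51 at 12 h and 1.52 to 1.74 at 24 h. The sums at 6 h overlapped those at 24 h, and those at 12 h lay above all others. Of the 8 genes, 0 were called higher and 1 lower at 6 h against 0 h in the scanner values. At 12 h against 0 h 1 was called higher and 0 lower. The gene called at 6 h was Treml1, which fell by 1.16 and had a change of -0.83 at 12 h. Its mean signal was 0.544 at 0 h and 0.246 at 6 h. The gene called at 12 h was Itgb3, an integrin subunit that other cells carry as well, which rose by 1.16. The mean signal of Itgb3 was 0.584 at 0 h and 1.31 at 12 h, which is a large part of the sum at 12 h. Itga2b, the platelet integrin subunit, had a log2 change of -0.43 at 6 h and 0.26 at 12 h against 0 h in the scanner values, and fell by 1.32 and 1.99 in the table. The part of these cells in the levels of Ppbp was not tested. Of all genes, 10.2% rose and 15.9% fell at 6 h against 0 h in the scanner values, and 13.7% and 16.9% at 12 h. Of 5 measured macrophage markers, 0 rose and 2 fell at 6 h against 0 h in the scanner values, and 1 rose and 1 fell at 12 h. Their summed signals were 135 to 136 at 0 h, 138 to 154 at 6 h, 262 to 290 at 12 h and 134 to 142 at 24 h. Fcgr1, a high-affinity receptor for IgG, fell by 1.45 at 6 h and rose by 1.71 at 12 h in the scanner values, and in the table it fell at both times, with changes of -2.11 and -2.77. Stromal markers were low, with Col1a1, Col3a1 and Pdgfra not above the filter. Dcn and Lum were not well above background on any array at 0 h and passed only through the 6 h and 12 h arrays, so they are left out. The mean signals of Pdgfrb and Col1a2 were 0.136 and 0.211 at 0 h and 0.699 and 0.296 at 6 h. Of the other 2, Pdgfrb, a receptor for platelet-derived growth factor, rose by 2.37 at 6 h against 0 h in the scanner values and had a change of 0.14 in the table, and Col1a2 was called in neither. The part of stromal cells in the rise of Cxcl5 was not tested.

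For each member the 3 named genes with the most similar level over the 12 samples were listed by Pearson's r, as a description of likeness over 4 groups. By the scanner Cxcl1 and Cxcl2 were each other's closest gene among 11380 compared (r = 0.9997), followed for both by P2ry2, a receptor for extracellular nucleotides. Cxcl3 was closest to Clec4e (r = 0.9999), an innate receptor for mycobacterial glycolipid, then to Il6 and Inhba, but Cxcl3 was saturated on all 6 h arrays and Il6 on all 6 h and 12 h arrays, so this order rests on capped values. Cxcl5 was closest to Plet1 (r = 0.9982), Slc32a1 and Srxn1. Ppbp had other neighbours, among them Mvd (r = 0.9963) and Pcyt2 (r = 0.993). In the table the closest genes were 2310057M21Rik for Cxcl1 (r = 0.9936), Rasgef1b for Cxcl2 (r = 0.9994), Nqo1 for Cxcl3 (r = 0.9993), Rgs1 for Cxcl5 (r = 0.9985) and Sdc4 for Ppbp (r = 0.999). No gene was among the 3 closest of the same member in both sources.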

How the data were processed

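RNA of 12 samples was labelled with Cy3 and hybridised to Agilent 1-colour arrays. The deposited scanner files hold spot intensity values, background-subtracted on a linear scale by Agilent Feature Extraction 9.1.3.1, per the file headers and the submitters' processing notes. The value table that the authors deposited holds each probe as a linear ratio to the middle one of its own 0 h values, never under 0.01. The sources used here give neither the scaling of its columns nor the genome build of the array.

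From the scanner files, 732 outlier spots were left out, log2 of each intensity was taken, the array's 75th percentile was subtracted, and spots of a probe were averaged. Probes well above background on every array of at least 1 group were kept (23492), and the brightest stood for its gene, 18403 genes in all, 11579 with a symbol. RefSeq accessions were looked up for names in a gene table, assembly GRCm38.p6, where 22937 of 23837 were found. The comparisons used limma 3.58.1 (R 4.3.3, files read with data.table version 1.17.8) on 4 group means, 8 residual degrees of freedom, two-sided, with Benjamini-Hochberg adjustment over all genes. The same model was run on log2 of the table ratios. A fold with a group saturated, or not well above background, on every array is a bound, taken against the higher of the array's lowest signal well above background and the probe's own. The number of arrays limits the precision, and p-values measure the spread between the 3 samples of a group, which the design calls independent experiments.

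The fit was tested on simulated data. The members, lists and comparisons were chosen with earlier results of these data known, and the examples named from the lists after their values were seen. Members are all named, list genes are counted (without those above background on no 0 h array where the text says so, a choice made after seeing the data), and the 3 genes of highest correlation are named for each member. Alternatives were normexp background (offset 50, on the median signal in place of the mean), quantile normalization, no filter on dim probes, slide and replicate number as blocks, outlier spots kept, probes averaged, columns centred, lowest ratios left out, each sample left out and, added after seeing the data, the 24 h samples left out. Deviations of samples sharing a replicate number correlated at -0.0853 to 0.155 in the scanner values and -0.0769 to 0.226 in the value table, so the numbers were not taken to pair the samples.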

Additional observations from a re-analysis of the deposited data

How the results depend on the processing

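No change of a member reversed its direction past the threshold under any alternative run. In the scanner values, 486 of the 490 member changes recomputed under alternatives stayed on their side of the threshold and 4 passed it, all at 12 h against 6 h. Those were Cxcl1 with normexp (log2 change -1.04) and quantile normalization (-1.16), Cxcl2 with quantile normalization (-1.03), and Cxcl1 without 6 h replicate 2, in a range of -1.02 to -0.86 over left-out samples. Quantile normalization thereby called 4 members at 12 h against 6 h in place of 2. In the table, 428 of 440 stayed and 12 lost the call. With quantile normalization of its columns these were Cxcl1 at 24 h against 0 h (4.37), Ppbp at 12 h against 6 h (-1.37), and at 24 h against 12 h Cxcl1 (-1.79), Cxcl2 (-1.40), Cxcl3 (-1.02) and Ppbp (-0.82), so that 0 members were called by limma in the last 2 comparisons. The other 6 were Cxcl1 at 24 h against 12 h with 1 column of 12 h or 24 h left out, in a range of -1.78 to -1.68. The cause was not tested. In the table each probe's middle value at 0 h is 1 by construction. Quantile normalization gives the 0 h columns the same spread of values as the exposed columns. The calls lost with it therefore do not tell how firm the changes of the members are. The replicate block changed no call on a member in either source, and called 86 of all genes in place of 154 at 24 h against 0 h in the scanner values. Counts of all genes moved by over 1.5 times with normexp in the scanner values, to 2577 from 4800 at 6 h, 3064 from 5632 at 12 h and 8 from 154 at 24 h against 0 h, 577 from 1286 at 12 h against 6 h and 3155 from 5713 at 24 h against 12 h. At 24 h against 0 h the count was 95 without the filter, 23 with the slide block and 24 to 292 over left-out samples. Quantile normalization of the table gave 2697 in place of 4608, 2662 in place of 5114, 2637 in place of 4832, 186 in place of 1067 and 110 in place of 841 in the 5 comparisons. Signal over background limits Cxcl5 at 0 h, and saturation limits Cxcl3 at 6 h.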
